A study of Macaca fuscata with 18 samples.

Results

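The A1 fragments are 6 of the 18 RNA Seq libraries of macaque SVZa, the tissue that lines the anterior horn of the lateral ventricle. They were chosen as every library whose title starts with A1, 1 from each of 3 ischemic and 3 sham-operated monkeys. In the ischemic *Macaca fuscata* (MK503, MK507 and MK506) the large arteries to the brain had been clipped for 18 min, and in the sham-operated ones (MK504, MK501 and MK508) the same operation was done without the clip. All were adult monkeys, of both sexes over the whole study, and the tissue was taken a week after surgery from the striatal side of the ventricle. The labels do not say what the A number stands for, nor that A1 is the same place in each monkey. It was read as 1 of the 3 adjacent tissue fragments of a monkey and holds several cell types. Since the tissue was sequenced in bulk, fewer cells of a type and less RNA per cell cannot be told apart. Below, 3 values in a row always stand in the order of the monkey pairs, MK503, MK507 and MK506 for ischemia, and MK504, MK501 and MK508 for sham.

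The SVZ is a layered niche. Multiciliated ependymal cells face the ventricle, astrocytes and the astrocyte-like stem cells lie beneath them, and precursors of neurons and of oligodendrocytes leave from there. On its striatal side the layer borders on the caudate nucleus, whose main cells are GABAergic projection neurons and which is crossed by bundles of myelinated fibers. Mature oligodendrocytes wrap these fibers and make very large amounts of a few messages, above all those of the myelin proteins, while astrocytes answer injury with filament, matrix and acute phase genes.

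The A1 libraries held 21293436 to 70268873 counts in ischemia (median 55634148) and 19091839 to 57331410 in sham (median 38019896). These are raw counts per transcript. For a gene with several transcripts, only the one with the most counts in A1 was used. Levels are given as CPM, the counts relative to the library total as scaled by the TMM method. They are not corrected for transcript length, so they compare libraries and not genes. The first pair, MK503 and MK504, stood apart, with MALAT1, a nuclear noncoding RNA, at 1.27 and 1.21% of all counts, against 0.0360 to 0.235% in the other 4 libraries. Choroid plexus and ependymal markers also differed widely between single A1 libraries, as given further on. Markers of the cells that the tissue should hold were detected in all 6 libraries, among them FOXJ1 of ependymal cells, GFAP of astrocytes, DCX of neuroblasts and PPP1R1B of striatal neurons.

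Ischemia and sham were compared over 16649 genes with edgeR's quasi-likelihood test, with the monkey pair as a block. With 3 pairs no gene passed an adjusted p under 0.05, neither higher (0 genes, 0%) nor lower (0 genes, 0%). The smallest adjusted p was 0.0554 and was shared by 83 genes, and 740 genes with higher and 633 with lower counts had an adjusted p under 0.1. At an unadjusted p under 0.05 there were 1805 genes with higher counts in ischemia (10.8% of those tested) and 1867 with lower counts (11.2%). With an adjusted p under 0.05 in DESeq2, on the same counts and pairs, 1116 genes had higher counts in ischemia (6.97%) and 1161 had lower ones (7.25%). A fit in edgeR that left out the pairs gave 552 genes in the first and 181 in the second direction at an unadjusted p under 0.05. The pairs are not in the labels. They were read from column numbers of a table of the study, matched to the monkeys by values. Deviations from the group means correlated within the pairs, but for MK507 hardly more with its partner MK501 (r = 0.50) than with MK508 (0.49). Over all genes tested the median log2 fold change was -0.03. In the following, a member counted as higher or lower is one with an unadjusted p under 0.05 in edgeR. Fold changes are ischemia minus sham on the log2 scale. The p-values rest on how far the differences within the 3 pairs vary, not on the full spread between the 6 libraries. The count of each list is to be read against the shares over all genes, and where only a few members passed (cholesterol synthesis, cell cycle, NOTCH, chaperones, microglia, hypoxia and the like) the values describe these members and not the list.

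Among the genes with the smallest p and the same direction in all 3 pairs, the first was APLNR, the gene of the apelin receptor. It had 177, 41.4 and 195 CPM in ischemia, against 10.9, 3.89 and 11.1 CPM in sham, a log2 fold change of 3.85 (standard error 0.22, adjusted p 0.0554 in edgeR). CD44, the gene of the hyaluronan receptor, followed with 168, 76.3 and 139.7 CPM in ischemia, against 31.8, 14.3 and 26.8 CPM in sham, a log2 fold change of 2.40 (0.14). In both genes each ischemic library was above each sham library. The same held for MYBPHL, which encodes a relative of the myosin binding proteins, with 29.4, 24.5 and 50.3 CPM in ischemia, against 1.97, 2.53 and 3.98 CPM in sham and a log2 fold change of 3.57. It held as well for ADAMTS4, a protease of matrix proteoglycans (2.23), for UNC5B, a netrin receptor (3.03), and for CHST3, a chondroitin sulfotransferase (1.91). In REEP3 (2.13), AMER2 (2.13), CLMN (2.17) and DOCK5 (2.33) the groups overlapped, since the sham MK504 was above the ischemic MK507. DOCK5, an exchange factor for a RAC GTPase, had 258, 17.8 and 53.3 CPM in ischemia, against 57.6, 3.0 and 10.7 CPM in sham. For each of these 10 genes the adjusted p in edgeR was 0.0554.

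The 10 genes of the other direction were GPX2, TNNT1, NRSN2, NSG1, CLVS1, RGS9, GOLGA7B, SOCS2, GLRA2 and TESC. Their log2 fold changes lay between -2.26 (GPX2, a glutathione peroxidase gene) and -1.20 (NSG1, a gene of neuronal endosomes), and their adjusted p in edgeR between 0.0554 and 0.0593. GPX2 had 0.696, 7.62 and 2.13 CPM in ischemia, against 3.36, 33 and 12.4 CPM in sham. RGS9, whose long form is a regulator of dopamine receptor signaling in the striatum, had 23.5, 131 and 40.8 CPM in ischemia, against 74.3, 340.1 and 180.0 CPM in sham. GLRA2, a glycine receptor subunit, had 8.44, 16.6 and 3.37 CPM in ischemia, against 27.9, 46.4 and 15.5 CPM in sham. The lower values were thus within pairs. Ischemic and sham libraries overlapped in 7 of the 10, and did not in NSG1, CLVS1 and SOCS2.

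The genes of myelin and of mature oligodendrocytes had the highest median of all gene lists. Of 22 listed genes 21 were in the table and tested (GJB1 was not analysed here), and all 21 were higher in ischemia, with log2 fold changes of 2.13 to 3.18 and a median of 2.60, or 6.08-fold. In all 21 each ischemic library was above each sham library, where over all genes tested this held for 5.91%. DESeq2 called all 21 (adjusted p under 0.05), edgeR none, with adjusted p between 0.0554 and 0.118. The count at an unadjusted p was 21 without the block too, and at least 20 with any 1 pair left out. The median was 3.05, 1.92 and 2.82 in the 3 pairs. Summed over the list, the level was 36559.5, 19487 and 53176 CPM in ischemia, against 4545, 5740.0 and 7459 CPM in sham, which is 8.04, 3.39 and 7.13 times as high within the pairs.

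Structural genes of the sheath are in this list. MBP, the gene of myelin basic protein, had 11377, 8671 and 26221 CPM in ischemia, against 1335, 2369.6 and 3746 CPM in sham, a log2 fold change of 2.59 (standard error 0.34). Each of its ischemic libraries was above each sham library. The 2 adhesion proteins of the outer and inner sheath followed the same pattern. MOG had 1065, 429 and 1065 CPM in ischemia, against 144, 114 and 158 CPM in sham (2.52). MAG had 525, 442 and 1176 CPM in ischemia, against 51.3, 103 and 141 CPM in sham (2.84). In neither did the groups overlap. MOBP had 2059.7, 642 and 1823 CPM in ischemia, against 174, 120.0 and 171 CPM in sham, with a log2 fold change of 3.14. CNP, a phosphodiesterase of noncompact myelin, was at 2.46, and CLDN11, the tight junction protein between its lamellae, at 2.87.

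**Figure D1:**
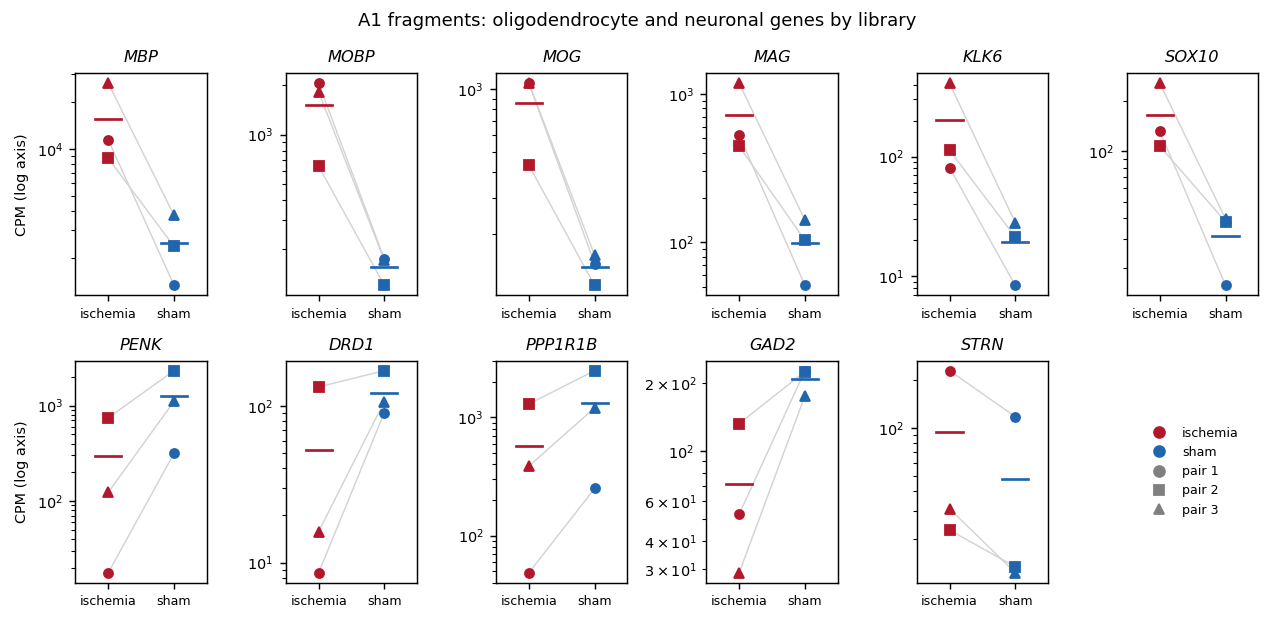
Level in CPM (log axis) of 6 oligodendrocyte genes (upper row) and 5 neuronal genes (lower row) in the A1 libraries, ischemia in red on the left and sham in blue on the right. Symbols mark the monkey pair, grey lines join a pair and bars are group means (n = 3). The 3 ischemic libraries lie above the 3 sham libraries for each oligodendrocyte gene, while PENK, DRD1 and PPP1R1B are lower within each pair but overlap between the groups.

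The member with the highest log2 fold change was KLK6, a secreted protease of oligodendrocytes, with 80.8, 113 and 409 CPM in ischemia, against 8.36, 21.2 and 28 CPM in sham (3.18, standard error 0.33). MYRF, the transcription factor that starts the myelin program, had 409, 222 and 542 CPM in ischemia, against 40.9, 60.9 and 82 CPM in sham (2.64). Enzymes of myelin lipids were among the 21 too. UGT8, which makes galactosylceramide, was at 2.71, FA2H, the fatty acid hydroxylase, at 2.60, and ASPA, which splits N-acetylaspartate, at 2.13. ASPA had the lowest log2 fold change of the list. TF, transferrin, which oligodendrocytes make in the brain, had 1133, 572 and 1394 CPM in ischemia, against 171, 172 and 185 CPM in sham (2.46). CNDP1, the carnosinase gene, had 70.6, 58.9 and 100.3 CPM in ischemia, against 13.4, 13.1 and 6.97 CPM in sham (2.79). HAPLN2, a link protein of the nodes of Ranvier, had the largest error of the list, 2.28 (0.57). The first pair, with 182 CPM in ischemia and 12.7 CPM in sham, differed most there.

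Cholesterol synthesis, the pathway that feeds the growth of new sheaths, had a median of -0.17 over 21 genes. Of these 3 were higher, among them INSIG1 (0.98) and NSDHL (0.52), and 2 lower (EBP, -0.74, and PMVK, -0.58). INSIG1, a sterol sensor that holds the pathway back, had 185, 78.5 and 123 CPM in ischemia, against 45.6, 68.7 and 72 CPM in sham, without overlap. The 2 lists were not compared with each other in a test.

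**Figure D2:**
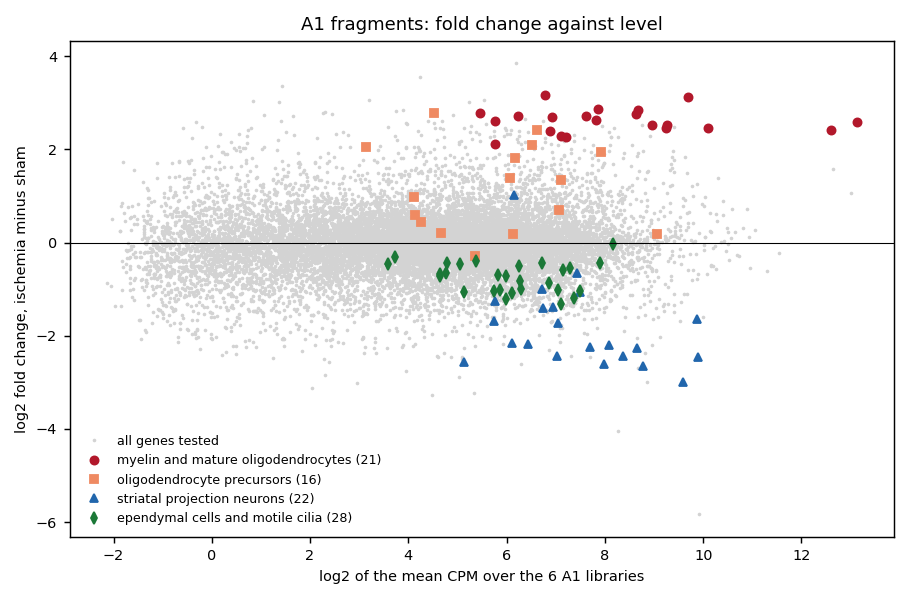
Log2 fold change (ischemia minus sham) of each of the 16649 genes tested against the log2 of its mean CPM over the 6 A1 libraries. Red circles are the 21 myelin genes, orange squares the 16 precursor genes, blue triangles the 22 striatal projection neuron genes and green diamonds the 28 ependymal genes. The myelin genes lie at 2.13 to 3.18, and MBP is among the genes with the highest counts.

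Genes listed for oligodendrocyte precursors were mostly higher. The list also holds factors of the whole lineage and markers of newly forming oligodendrocytes, so it is not restricted to precursors. Of 16 genes 12 were higher and none lower, with a median of 1.17, and 8 were higher without overlap between the groups (5.91% of all genes were). SOX10, the lineage factor, had 132, 107 and 256 CPM in ischemia, against 15.7, 37.9 and 39.4 CPM in sham (2.42, standard error 0.35). OLIG1, which acts with it, had 156, 94.9 and 194 CPM in ischemia, against 19.3, 41.3 and 44.9 CPM in sham (2.10). OLIG2 had 106, 81.3 and 147 CPM in ischemia, against 18.8, 41.7 and 36.4 CPM in sham (1.82). None of these 3 overlapped between the groups. ENPP6, a choline phosphodiesterase that marks newly forming oligodendrocytes in mice, had 74.5, 11 and 37.9 CPM in ischemia, against 7.78, 3.05 and 4.06 CPM in sham (2.78), and BCAS1, a marker of cells starting to myelinate, was at 1.94. NKX2-2 was at 2.05 and GPR17, a receptor of committed precursors, at 0.98 (0.33).

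PDGFRA, the growth factor receptor that defines dividing precursors, had 356, 78.3 and 84.3 CPM in ischemia, against 169, 73.9 and 44.6 CPM in sham (0.69, standard error 0.24), and the groups overlapped. CSPG4, the NG2 proteoglycan, was at 0.60. PTPRZ1 with 0.19 (0.23), SOX6 with 0.17 (0.26), PCDH15 with 0.21 (0.16) and LHFPL3 with -0.29 (0.34) did not reach an unadjusted p under 0.05. PTPRZ1, a receptor phosphatase also made by astrocytes, had 897, 434 and 381 CPM in ischemia, against 739, 289.6 and 468 CPM in sham.

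Genes of striatal projection neurons were lower within the pairs. Of 22 genes 19 were lower, 1 was higher and 2 did not pass, with a median log2 fold change of -2.17, and it was -2.46, -1.15 and -2.45 in the 3 pairs. DESeq2 called 20 lower and 1 higher. The groups did not overlap in 3 genes, BCL11B, FOXP1 and PDE10A, where over all genes tested 3.48% were lower without overlap. Without the block 1 of the 22 was lower at an unadjusted p under 0.05. The summed level was 921, 6702 and 1480.2 CPM in ischemia, against 3967, 14821 and 7471 CPM in sham. The ischemic MK507 thus had more than the sham MK504, and the sham libraries differed widely among themselves.

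Both output pathways of the striatum were represented. Of the indirect pathway, PENK, the precursor of the enkephalins, had 17.7, 746 and 124 CPM in ischemia, against 316, 2331 and 1109 CPM in sham (-2.98, standard error 0.55), the largest negative value of the list. ADORA2A, the adenosine receptor of the same cells, was at -2.43, GPR6 at -2.56 and DRD2 at -2.15. In cells of the direct pathway, TAC1, the precursor of substance P, had 20.1, 339 and 53.8 CPM in ischemia, against 119, 932 and 524 CPM in sham (-2.44, 0.40). PDYN, the precursor of dynorphin, was at -2.19. DRD1, the dopamine receptor of these cells, had 8.62, 132 and 15.8 CPM in ischemia, against 90.7, 168 and 107 CPM in sham (-2.18). Genes of both kinds of cell followed. PPP1R1B, the gene of DARPP-32, had 48.7, 1296 and 387 CPM in ischemia, against 250.3, 2478 and 1202 CPM in sham (-1.64). RASD2, a small GTPase of the striatum, had 8.18, 233 and 49.1 CPM in ischemia, against 61.9, 627 and 269.8 CPM in sham (-2.25).

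STRN, the gene of the scaffold protein striatin, was the member with a higher value, with 229, 22.8 and 31 CPM in ischemia, against 118, 13.4 and 12.3 CPM in sham (1.02). Both of its libraries in the first pair were well above the others. ADCY5, the adenylyl cyclase of the striatum, had -0.65 (0.31) and GNAL, the G protein coupled to it, -1.38 (0.52), and these 2 did not pass. Both were higher in the ischemic MK507 than in the sham MK501.

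Markers of neurons of all kinds had a median of -0.92, with 15 of 20 lower and 1 higher. GAD2, an enzyme that makes the transmitter GABA, had 52.6, 133 and 28.9 CPM in ischemia, against 227, 225 and 176 CPM in sham (-1.83), without overlap. The groups did not overlap in NEFL, a neurofilament gene, either (-1.35). SNAP25, of the vesicle fusion machinery, had 456, 784 and 239 CPM in ischemia, against 506.1, 1737 and 979.5 CPM in sham (-1.11, standard error 0.40). MAP2, of dendritic microtubules, had 1255, 672 and 276 CPM in ischemia, against 1766, 969 and 696 CPM in sham (-0.78). The exception was SLC17A7, the vesicular glutamate transporter of cortical neurons, with 142, 20.5 and 26.2 CPM in ischemia, against 55.2, 4.92 and 9.76 CPM in sham (1.60). Both libraries of the first pair were above all others.

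Astrocyte markers had small log2 fold changes, with a few exceptions. Of 22 markers 5 were higher and 2 lower, with a median of 0.35. GFAP, the intermediate filament of astrocytes, had 6503, 7024 and 15422 CPM in ischemia, against 2389, 2404 and 4478 CPM in sham (1.59, standard error 0.22), without overlap. AQP4, the water channel of astrocyte endfeet, was at 0.64, S100B at 0.97, CLU at 0.73 and FABP7 at 0.77. S100B is also made by oligodendrocytes. The glutamate transporter SLC1A3 had 992, 1130.0 and 809 CPM in ischemia, against 1500.5, 1329.7 and 1282 CPM in sham (-0.50), and FGFR3 was at -0.62. The other transporter, SLC1A2, with -0.61 (0.24), did not pass.

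Genes known from reactive astrocytes showed more. Of 20 there were 10 higher and none lower, with a median of 0.67. The acute phase inhibitor SERPINA3 had 54.2, 48.9 and 94.1 CPM in ischemia, against 15.2, 10.4 and 8.54 CPM in sham (2.50, standard error 0.36). CHI3L1, a secreted chitinase-like protein, had 34.6, 29.6 and 54.6 CPM in ischemia, against 5.82, 7.83 and 7.08 CPM in sham (2.47). In both the groups stood clearly apart. CRYAB, a small heat shock protein also abundant in oligodendrocytes, had 224, 693 and 1485 CPM in ischemia, against 41.7, 174 and 276 CPM in sham (2.28). Of filament genes, NES, encoding nestin, had 35.2, 77.3 and 121 CPM in ischemia, against 21.1, 20.0 and 18.2 CPM in sham (1.82, 0.42), and SYNM was at 1.24. VIM, encoding vimentin, had 70.0, 244 and 232 CPM in ischemia, against 105, 162 and 192 CPM in sham (0.10, 0.27) and did not pass. TIMP1 was at 0.61, S100A10 at 0.98 and C3 at 0.68. SOCS3 (-0.54), an inhibitor of cytokine signaling, and MT2A (0.75), a metallothionein, did not pass.

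**Figure D3:**
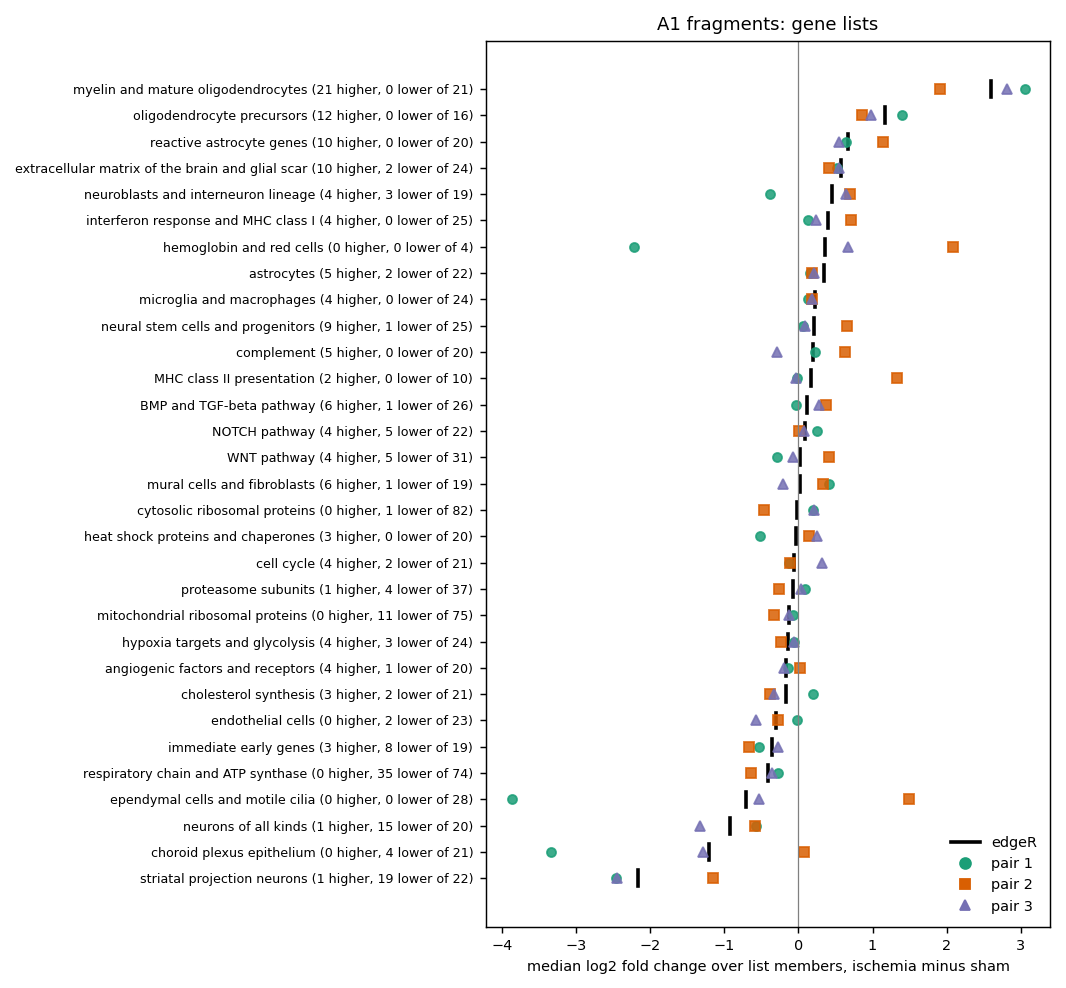
Median log2 fold change (ischemia minus sham) over the tested members of 31 gene lists, as fitted by edgeR (black bars) and within each monkey pair (symbols), with the counts of members past an unadjusted p of 0.05 in each direction. The myelin list is at 2.60 and the striatal projection neuron list at -2.17, and both keep their sign in the 3 pairs, while the ependymal list spans -3.87 to 1.50.

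The extracellular matrix of the brain had 10 of 24 members higher and 2 lower, with a median of 0.58. Besides CD44, HAPLN2 and CHST3, given above, proteoglycans and their partners were among the higher ones. VCAN, versican, had 394, 93 and 119.9 CPM in ischemia, against 129, 41.9 and 49.1 CPM in sham (1.35, standard error 0.16). BCAN, brevican, had 279.6, 421 and 559 CPM in ischemia, against 145, 296 and 256 CPM in sham (0.86). TNR, tenascin-R, had 252, 16.8 and 13.3 CPM in ischemia, against 111, 3.70 and 7.16 CPM in sham (1.39). All 3 were higher within each pair and overlapped between the groups. TNC, tenascin-C, was at 0.57, SPARC at 0.93 and THBS2 at 1.03. Several of these are made by oligodendrocytes or their precursors (HAPLN2, CSPG4, TNR, VCAN). The 2 lower members belong to the basement membrane, the laminin chain LAMB1 (-0.86) and the collagen chain COL4A2 (-0.46).

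Of 20 angiogenic factors and receptors 4 were higher and 1 lower, and the list's median was -0.16. Both the receptor APLNR and its ligand APLN were among the higher ones. APLN had 26.8, 52.1 and 104 CPM in ischemia, against 11.1, 17.5 and 18.3 CPM in sham (1.78, standard error 0.28), without overlap. EGLN3, a prolyl hydroxylase of HIF that hypoxia itself induces, had 96.4, 70.6 and 140.3 CPM in ischemia, against 28.6, 30.9 and 50.7 CPM in sham (1.47), and ANGPT1, a ligand that stabilizes vessels, was at 1.14. KDR, the main VEGF receptor, had 13.1, 5.27 and 3.02 CPM in ischemia, against 49.9, 6.85 and 5.75 CPM in sham (-1.07), with MK504 far above the rest. Endothelial markers had a median of -0.30, with 2 of 23 lower (KDR and ESAM, -0.89) and none higher. Over all genes 11.2% were lower and 10.8% higher, so the lower values describe these 2 members and not the list. VWF (0.13, 0.25), CLDN5 (0.28, 0.17) and PECAM1 (-0.36, 0.26) did not pass.

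Mural cell and fibroblast genes went both ways. Of 19, 6 were higher and 1 lower, with a median of 0.03. Higher were the muscle filament gene DES (2.31), the smooth muscle myosin MYH11 (1.10), the fibroblast genes LUM (0.82), COL1A2 (0.63) and COL3A1 (0.60), and CSPG4. DES had 6.35, 4.54 and 24.5 CPM in ischemia, against 1.97, 1.17 and 2.43 CPM in sham. PDGFRB, the receptor that defines pericytes, had 32.9, 41.5 and 29.5 CPM in ischemia, against 62.9, 53.1 and 49.2 CPM in sham (-0.67), each ischemic library below each sham library.

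Microglial markers had small log2 fold changes too, with 4 of 24 higher, none lower and a median of 0.23. SPP1, osteopontin, which oligodendrocytes and activated microglia can make, had 287, 269.8 and 413 CPM in ischemia, against 105, 129 and 139 CPM in sham (1.36, standard error 0.18). CD74, the invariant chain of MHC class II, was at 0.77, CX3CR1, the fractalkine receptor, at 0.59 and LAPTM5 at 0.37. The defining genes AIF1 (0.17, 0.27), CSF1R (0.27, 0.19) and P2RY12 (0.31, 0.19) did not pass. Of 20 complement genes 5 were higher, the components C2 (1.57), C1S (0.99), C1R (0.91) and C3, and the decay factor CD55 (1.07), with none lower. Of 25 interferon response and MHC class I genes 4 were higher (IFIT2, 0.88, IFIT3, 0.78, HLA-E, 0.50, and STAT2, 0.47), with a median of 0.40. Of 10 MHC class II genes CD74 and HLA-DQA1 (1.01) were higher. Reads of such multigene families may be shared between copies.

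Stem cell and progenitor genes had 1 of 25 lower (over all genes 11.2%) and 9 higher (over all genes 10.8%), with a median of 0.21. Besides NES, the higher ones were SOX2, the stem cell transcription factor (0.82), LGR5 (1.62) and the zinc finger gene ZBTB16 (1.45). ID2 (0.88), ID3 (1.20), PROM1 (0.80), FABP7 and TNC were higher too. The study had reported LGR5, ZBTB16 and TNC as raised in these samples with the other fragments, so their direction is no independent evidence. NES, FABP7 and TNC were also counted above among astrocyte, reactive or matrix genes, so they are not particular to progenitors. SOX2 had 237, 371 and 440.1 CPM in ischemia, against 114, 213 and 289.9 CPM in sham. LGR5, the receptor of R-spondins, was low in all libraries, with 3.92, 1.02 and 1.34 CPM in ischemia, against 0.656, 0.563 and 0.359 CPM in sham. HES5, a target of NOTCH in stem cells, had 5.05, 9.22 and 4.20 CPM in ischemia, against 10.4, 30.1 and 10.7 CPM in sham (-1.37, standard error 0.22), each ischemic library below each sham library. EGFR with -0.12 (0.30) and PAX6 with 0.18 (0.15) did not pass.

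Neuroblast and interneuron genes divided, with 4 of 19 higher and 3 lower. DCX, doublecortin, the marker of migrating neuroblasts, had 80.5, 113 and 41.7 CPM in ischemia, against 105, 69.5 and 37.4 CPM in sham (0.16, standard error 0.24) and did not pass. STMN1, a microtubule destabilizer, had 456, 474 and 833 CPM in ischemia, against 159, 259 and 246 CPM in sham (1.38), without overlap. DLX2, a factor of interneuron precursors, had 1.31, 10.7 and 3.94 CPM in ischemia, against 0.901, 4.27 and 2.27 CPM in sham (0.90). DLX5 (-0.85), DLX6 (-1.27) and ROBO2 (-0.66) were lower. NEUROD1 (1.75) and TBR1 (1.71), genes of the glutamatergic lineage, were the other 2 higher ones, each with its highest level in MK503.

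Cell cycle genes had 4 of 21 higher and 2 lower, with a median of -0.06. TYMS, thymidylate synthase, had 42.3, 17.5 and 50.3 CPM in ischemia, against 4.67, 5.30 and 6.28 CPM in sham (2.62, standard error 0.35), and the replication licensing genes MCM3 (0.96), MCM5 (0.75) and MCM7 (0.73) were higher. The cyclins CCNA2 (-0.57) and CCNE1 (-0.88) were lower. Of 22 NOTCH pathway genes the nuclear effector RBPJ (0.99), its coactivator MAML2 (1.05), the ligand DLL1 (0.57) and the target HEY2 (0.51) were higher. Lower were the ligands JAG1 (-0.72) and JAG2 (-0.81) and the targets HES5, HEY1 (-1.04) and HEYL (-0.81). RBPJ had 111, 29.9 and 33.5 CPM in ischemia, against 57.2, 10.3 and 23.6 CPM in sham.

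Of 31 WNT pathway genes 4 were higher and 5 lower, shares near those of all genes (10.8% and 11.2%), so the values below describe single members and not the pathway. SFRP1, a secreted inhibitor that binds WNT proteins, had 335, 187 and 394 CPM in ischemia, against 137, 39.6 and 42.1 CPM in sham (2.25, standard error 0.41), without overlap. Other secreted inhibitors were lower, DKK3 with 189, 652 and 220.1 CPM in ischemia, against 445, 1259 and 746 CPM in sham (-1.31), DKK2 with -1.47 and WIF1 with -0.82. The ligand WNT4 (0.96), the receptor FZD5 (0.83) and the coreceptor LRP6 (0.74) were higher, and the ligand WNT16 (-2.25) and the receptor FZD7 (-0.73) lower. Of 26 genes of the BMP and TGF-beta pathway 1 was lower (BMPR2, -0.53, over all genes 11.2%) and 6 were higher (over all genes 10.8%). They included the ligand BMP4 (1.01), the receptor BMPR1A (0.59), CXXC5, a zinc finger gene that BMP induces (1.32), and the coreceptor NEO1 (1.18). CXXC5 had 35.3, 47.6 and 77.9 CPM in ischemia, against 15.9, 17.8 and 29.6 CPM in sham. The study had reported BMPR1A, CXXC5 and NEO1 as raised in these samples with the other fragments, so their direction is no independent evidence.

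Immediate early genes, which neurons and glia switch on within minutes of a stimulus, had 8 of 19 lower and 3 higher, with a median of -0.36. Lower were EGR1 (-1.21), EGR2 (-2.04), EGR3 (-1.30), EGR4 (-1.18), FOSB (-1.56), ARC (-0.95), NR4A1 (-0.94) and NR4A3 (-0.68). EGR1, a zinc finger factor, had 15.5, 62.1 and 22.9 CPM in ischemia, against 30.3, 129 and 69.1 CPM in sham, so the difference was within the pairs and the groups overlapped. Among the AP-1 genes JUN had 37.8, 72.8 and 108 CPM in ischemia, against 23.1, 31.6 and 46.4 CPM in sham (1.05, standard error 0.17), and JUND (0.71) and ATF3 (1.23) were higher as well. Of 20 chaperone genes, CRYAB, HSPB8 (1.17) and its partner BAG3 (0.93) were higher and none was lower.

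The respiratory complexes and the ATP synthase were covered by 74 genes, of which 35 were lower and none higher, with a median of -0.41, and it was -0.28, -0.63 and -0.36 in the 3 pairs. NDUFS3, of complex I, had 42.3, 119 and 77.2 CPM in ischemia, against 64, 254 and 144 CPM in sham (-0.86, standard error 0.16). COX7C, of complex IV, had 93.2, 126 and 86 CPM in ischemia, against 128, 279.9 and 165 CPM in sham (-0.85). DESeq2 called 13 of them lower, while limma voom and edgeR with DESeq2 size factors called 0 at an adjusted p under 0.05. The groups did not overlap in 3 of the 74, near the 3.48% of all genes. In the other fragments 40 of them were lower in A2 (over all genes 2.03%) and 18 in A3 (1.89%). In A1 15 of 20 markers of neurons of all kinds, given above, were lower too (over all genes 11.2%). In A2 0 of these 20 were lower or higher, with a median of -0.44. In A3 0 were lower and 3 higher (over all genes 3.09% higher), with a median of 0.16. The part of neurons in the respiratory values was not tested. Of 24 hypoxia and glycolysis genes 4 were higher, among them NDRG1, which has a role in myelination of peripheral nerves, with 532, 289 and 728 CPM in ischemia, against 85.5, 79.1 and 145 CPM in sham (2.28), and PDK1 (0.72). Lower were the glycolytic genes LDHA (-0.48), LDHB (-0.49) and PGK1 (-0.53). Cytosolic ribosomal proteins had a median of -0.02, with 1 of 82 lower, mitochondrial ribosomal proteins one of -0.13, with 11 of 75 lower, and proteasome subunits one of -0.07, with 4 of 37 lower and 1 higher. Several proteins of the cytosolic ribosome have processed pseudogenes, so their counts are uncertain.

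Of 34 genes that the study names for these data, 20 were higher, 2 lower (BATF, -2.07, and FOXH1, -1.65) and 12 did not pass. The study chose them on these samples together with the other fragments, so the count is not independent evidence of their direction. This holds too where genes of the study were counted in the lists above, such as BMPR1A, CXXC5, NEO1, RBPJ, LGR5, ZBTB16 and TNC. Besides those described above, FEZ1, a kinesin adaptor, had 528, 469 and 825 CPM in ischemia, against 194, 373 and 306 CPM in sham (1.07), FAM107A was at 0.91, GPR37L1, a receptor of astrocytes, at 0.70 and KIF2A, a microtubule depolymerase, at 0.64.

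Markers of the ventricular lining showed single libraries standing apart. Choroid plexus genes summed to 1139, 1233 and 1149 CPM in ischemia, against 8818, 1028 and 1988 CPM in sham, so the sham MK504 was above the other 5. TTR, transthyretin, the main secreted product of this epithelium, had 1.04, 155 and 18.4 CPM in ischemia, against 4308, 202 and 1087 CPM in sham, a log2 fold change of -5.83 with a standard error of 3.06, and did not pass, although the groups did not overlap. PRLR, the prolactin receptor, had 12.5, 9.34 and 2.64 CPM in ischemia, against 1755, 9.15 and 56.2 CPM in sham (-4.04, 1.88), and of the 21 tested RBP4 (-1.21), SLCO1C1 (-1.48), CA12 (-2.45) and IGF2 (-0.65) were lower. The sham MK508 came next to MK504 in the sum, in TTR and in PRLR. In MK503, TTR and PRLR made up only a small part of the sum, which there rests mostly on other members. The list's median was -3.34, 0.08 and -1.28 in the pairs. Ependymal genes summed to 918, 2927 and 2661 CPM in ischemia, against 3237, 1078 and 4158 CPM in sham. FOXJ1, the master factor of motile cilia, had 2.35, 259 and 262 CPM in ischemia, against 73.2, 62.7 and 281 CPM in sham. RSPH1, of the ciliary radial spokes, had 4.27, 162 and 158 CPM in ischemia, against 38.2, 98.1 and 236 CPM in sham. The ischemic MK503 was the lowest library for 25 of the 28 members. All 28 had a value below 0 in the fit, none passed, and the list median was -3.87, 1.50 and -0.53 in the pairs. For FOXJ1 the group mean was 174 ± 149 CPM in ischemia and 139 ± 123 CPM in sham (SD, n = 3 each), so mean and fit differ in sign. Of 4 hemoglobin and red cell genes tested none passed.

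**Figure D4:**
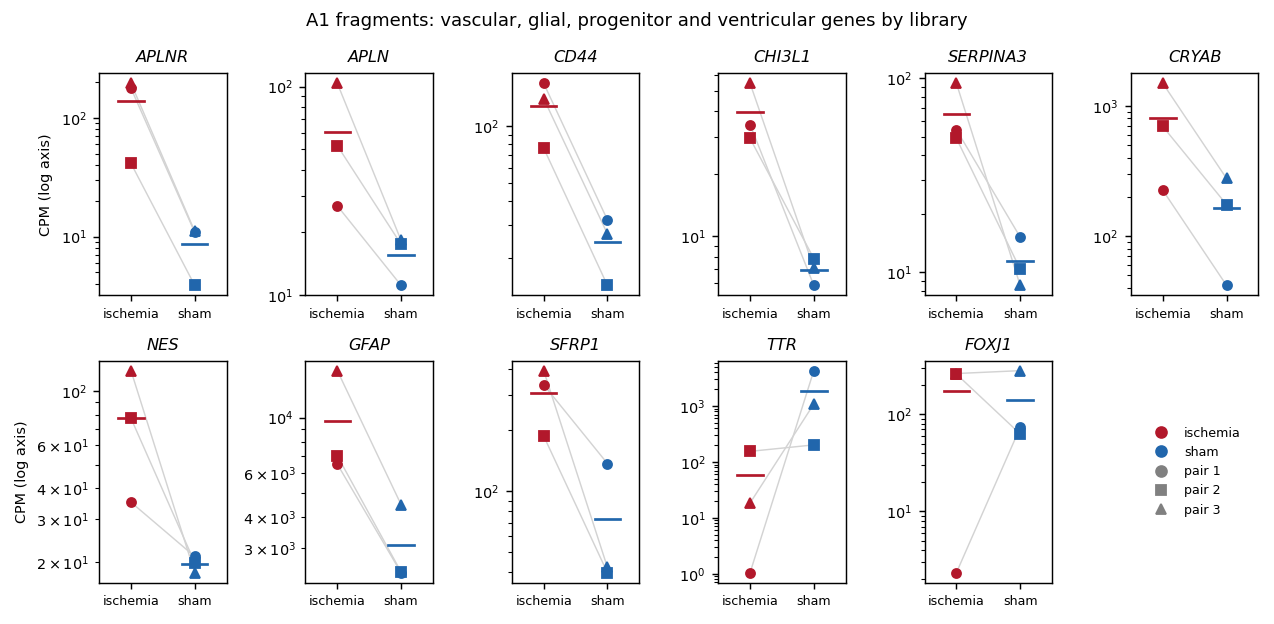
Level in CPM (log axis) of 11 genes in the A1 libraries, ischemia in red on the left and sham in blue on the right, with symbols for the monkey pair, grey lines that join a pair and bars for group means (n = 3). APLNR, APLN, CD44, CHI3L1, SERPINA3, NES, GFAP and SFRP1 are higher in ischemia without overlap between the groups, CRYAB overlaps, TTR is highest in the sham MK504, and FOXJ1 is lowest in the ischemic MK503.

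Both libraries of the first pair are among those that stand apart. Without this pair 21 of the 21 myelin genes were higher and 18 of the 22 striatal projection neuron genes lower at an unadjusted p under 0.05. Without the second pair these were 21 and 20, and without the third 20 and 16. The number of genes past the adjusted threshold in edgeR, however, turned on the second pair, since without MK507 or MK501 there were 822 higher and 444 lower genes.

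The same comparison was made in the other fragments of the same monkeys. In the A2 fragments, fitted in the same way, 20 of the 21 myelin genes were higher (over all genes 3.38% were higher) with a median of 1.79, and in the A3 fragments none was (over all genes 3.09%), with a median of -0.89. Scaled over all 18 libraries, the list summed in A1 to 34334, 18869 and 51039.6 CPM in ischemia, against 4255, 5469.9 and 7168 CPM in sham. In A2 it summed to 13359, 18154 and 22925 CPM in ischemia, against 2162, 4018 and 16241 CPM in sham. In A3 it summed to 1868, 4549 and 5248 CPM in ischemia, against 2897, 3100.1 and 51920.4 CPM in sham. The sham A3 fragment of MK508 was thus above each of the 9 ischemic fragments. Each condition had fragments with low and with high sums. Of the striatal projection neuron genes 1 was lower in A2 (over all genes 2.03%) and none in A3 (1.89%), with medians of -0.47 and -0.28. How much of the difference in A1 comes from where the tissue was taken cannot be told apart from the condition with 1 fragment per monkey.

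**Figure D5:**
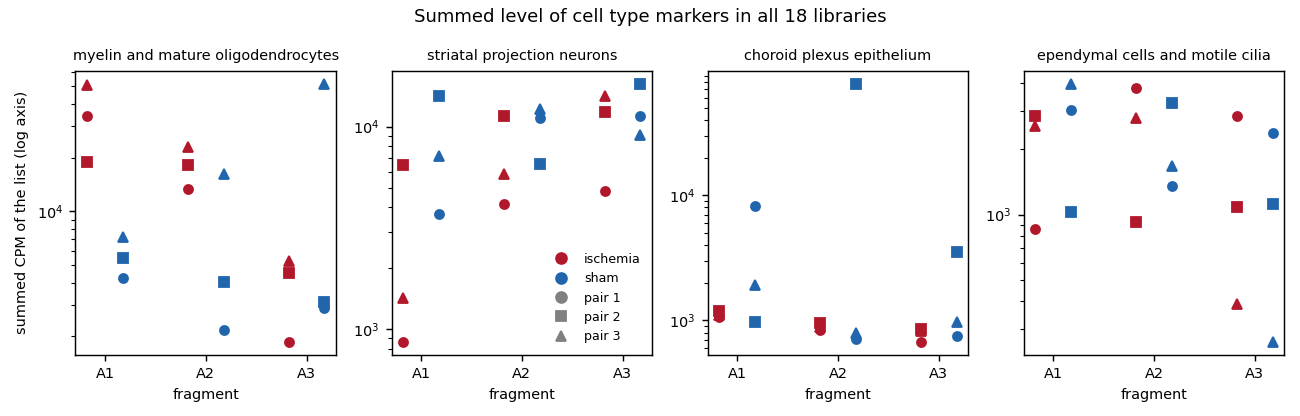
Summed level in CPM (log axis) of 4 lists of cell type markers in all 18 libraries by fragment, ischemia in red on the left and sham in blue on the right of each fragment, with symbols for the monkey pair. The myelin sums of A1 do not overlap, whereas in A3 the sham MK508 is at 51920.4. For the choroid plexus the sham MK504 stands out in A1 and the sham MK501 in A2.

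The A1 effect was tested against the mean of the A2 and A3 effects over all 18 libraries, with the monkey as a block. Of 17322 genes 0 passed an adjusted p under 0.05 in edgeR (smallest 0.363), and at an unadjusted p under 0.05 the A1 effect was above that of A2 and A3 for 1384 genes (7.99%) and below it for 648 (3.74%). With libraries scaled to their totals these were 636 and 1717, so the balance of the 2 directions turned with the scaling. All 21 myelin genes were among the first, also with totals, with a median difference of 2.162. Without MK503 this number was 7 and without MK506 it was 12. For the striatal projection neuron genes the A1 effect was below that of A2 and A3 in 8 of 22, with a median difference of -1.67. This number was 15 with totals, 0 without MK503, without MK506 or without MK501, 1 without MK508, 17 without MK507 and 18 without MK504. Without the sham A3 fragment of MK508, which stood apart, it was 3, and the myelin number 21. Without the sham A2 fragment of MK501 the striatal number was 5 and the myelin number 16.

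Single genes with the smallest p in this test were MLIP, with 129, 0.639 and 1.11 CPM in ischemia, against 23.3, 0.234 and 0.608 CPM in sham in A1 and a difference of the effects of 2.02, and NEU4, a sialidase (2.27), followed by MEIS1 (0.81), CUTC (0.83) and PPP1R1C (2.04). With the opposite sign these were CACNA2D2, a calcium channel subunit, with 24.6, 47.8 and 21 CPM in ischemia, against 105, 79.4 and 53.4 CPM in sham in A1 and a difference of -1.51, SH2D3A (-2.24), CD27 (-2.09), EPB41L4B (-1.80) and MYO5C (-1.49). Of genes described above, for example, APLNR (2.05), EGLN3 (1.19), TYMS (2.33) and CHST3 (1.42) reached an unadjusted p under 0.05 in it. CD44 (1.85), SFRP1 (1.97), VCAN (0.89) and JUN (0.16) did not, so that for these a difference between the fragments was not shown.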

How the data were processed

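RNA of 18 SVZa fragments from 6 monkeys was sequenced. Per the labels, the authors used CASAVA (1.8.2), FastQC (0.10.0), the aligner TopHat2 (2.0.8) and bedtools (2.16.2). The deposited table holds raw read counts per transcript, 29686 transcripts of 19747 symbols on the Macaca mulatta genome with RhesusBase annotation, not normalized. The strand setting is not given in the sources used here, so overlapping antisense genes cannot be told apart. No column was left out.

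The transcript with the highest mean CPM in A1 stood for each symbol. Counts were filtered with filterByExpr, scaled by TMM and fitted in edgeR (4.0.16) with pair and condition (robust quasi-likelihood F test, prior count 2, Benjamini-Hochberg adjustment over 16649 genes). DESeq2 (1.42.0), limma (3.58.1) and other settings were alternatives, in R (4.3.3), with figures from matplotlib in Python. The A1 effect against that of A2 and A3 was fitted with the monkey as a block. The biological coefficient of variation, with pair and condition fitted, was 0.300. This remaining spread, and not counting error, thus limits the precision of all but the lowest genes. With a single A1 fragment per monkey, spread between monkeys and spread from tissue sampling cannot be told apart. Replicates of a group differed by far more than counting noise.

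Column numbers of a table of the study give the pairs MK503 with MK504, MK507 with MK501 and MK506 with MK508, and it is assumed that these numbers pair the monkeys. The columns were matched to the monkeys by values. In A1 deviations from the group means correlated within pairs with r = 0.75, 0.50 and 0.70 over 16649 genes, which are not independent, while MK507 correlated with MK508 at 0.49. In their log2 CPM MK507 and MK508 were the most alike of all A1 libraries (r = 0.975), above MK507 and its partner MK501 (0.954). The fit was tested on simulated data. Some members of the lists are not reported here by name.

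Members, gene lists and the rule for named genes were chosen with earlier results of these data known. The rule takes, in each direction, 10 genes by p among those that agree in sign over the 3 pairs, per list the 2 members with the highest mean and up to 4 with the smallest p, genes named in the study, and 5 per direction from the test against A2 and A3. All other members named were picked as examples with their values in view.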

Additional observations from a re-analysis of the deposited data

Results flagged for a closer look

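The following A1 results had one direction in all 3 pairs of A1 and the opposite direction in all 3 pairs of another fragment. The difference from that fragment alone was not tested. In all, 218 genes were looked at, many of them named for their values in A1. The share of such reversals over all genes was not computed. CACNA2D2, CUTC, EPB41L4B, MLIP, PPP1R1C and SH2D3A were named for a small p in the test against A2 and A3. Their place here is thus no independent evidence of a difference. Against A3, the log2 fold changes in A1 were -1.38 for CACNA2D2, 1.07 for CD55, 0.56 for CUTC, 0.59 for CX3CR1, -1.47 for DKK2, -1.02 for EPB41L4B, 1.07 for FEZ1, 0.51 for HEY2, 0.98 for INSIG1, 1.06 for MALAT1, 1.10 for MYH11, -1.20 for NSG1, 1.71 for PPP1R1C, -1.72 for SH2D3A, -0.50 for SLC1A3 and 1.36 for SPP1. Against A2 they were 1.64 for MLIP, 1.10 for MYH11 and 0.61 for TIMP1. The median of the 24 microglia and macrophage genes was 0.23 in A1 and -0.30 in A3, and for 7 of them the A1 effect was above the mean of A2 and A3 at an unadjusted p under 0.05. Over all genes this share was 7.99%, or 1384 genes, and 636 genes with libraries scaled to totals.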

How the results depend on the processing

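The counts past the adjusted threshold depended on the tool. Against 0 and 0 in edgeR, 1116 genes were higher and 1161 lower in DESeq2, 235 and 84 in limma voom, 220 and 136 with DESeq2 size factors in edgeR, 425 and 294 without a filter on low counts, and 0 to 822 and 0 to 444 with 1 library and its partner left out. At an unadjusted p under 0.05, leaving out a library and its partner gave 894 to 2272 higher and 735 to 1978 lower genes. Without the replicate block these were 552 and 181, with 1 striatal projection neuron gene lower and no gene past the adjusted threshold (smallest adjusted p 0.752 in edgeR). In the test of A1 against A2 and A3, scaling to totals gave 636 genes above and 1717 below, with 15 striatal projection neuron genes below. Leaving out a monkey with all its fragments gave 568 to 1535 above and 174 to 1191 below. It gave 7 to 21 myelin genes above and 0 to 18 striatal projection neuron genes below. Without the sham A3 fragment of MK508, an alternative chosen after seeing the data, 431 genes were below and 3 of the striatal genes. Without the sham A2 fragment of MK501, likewise chosen, 5 of the striatal genes were below. The myelin genes above were 21 in the first of these and 16 in the second. The cause of these changes was not tested.

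Of 218 genes named, 209 kept their sign in each alternative. The others did not pass the test in A1. In the ranges that follow, the partner of a library left out was left out too. AIF1 (0.17) ranged from -0.11 to 0.54 with a library left out. DCX (0.16) ranged from -0.049 to 0.46 with a library left out. EGFR (-0.12) ranged from -0.33 to 0.24 with a library left out and was 0.012 with all transcripts of a symbol summed. FOXJ1 (-0.54) ranged from -2.11 to 0.99 with a library left out and was 0.33 with no block for the pairs. LHFPL3 (-0.29) ranged from -0.70 to 0.17 with a library left out. RSPH1 (-0.86) ranged from -1.66 to 0.10 with a library left out. SOX6 (0.17) ranged from -0.10 to 0.45 with a library left out. VIM (0.10) ranged from -0.093 to 0.46 with a library left out. VWF (0.13) ranged from -0.14 to 0.37 with a library left out. The limits are those of 3 pairs of monkeys whose pairing is not in the labels, of 1 fragment per monkey with no stated position, of bulk tissue, and of a rhesus annotation for another macaque. Genes with few counts, such as LGR5 or SH2D3A, rest on few reads, so their values are the least precise.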

Other observations

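Genes of glutamatergic neurons, picked after their values were seen, were highest in the first pair. SLC17A7, NEUROD1 and TBR1, given above, had their highest level in the ischemic MK503 and the next in the sham MK504, and within each pair the ischemic library was above its sham partner. MLIP, the gene with the smallest p in the comparison of the fragments, had the same order of these 2 libraries. MK503 and MK504 were also the 2 highest libraries for STRN, TNR, PTPRZ1, MAP2 and MALAT1, likewise picked with their values in view. The trait was thus not particular to genes of glutamatergic neurons.

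Of 82 cytosolic ribosomal proteins 9 were lower in ischemia in A2 (over all genes 2.03%), 0 in A3 (1.89%) and 1 in A1 (11.2%), with medians of -0.58 in A2, -0.29 in A3 and -0.02 in A1, and in 13 the A1 effect was above the mean of A2 and A3 at an unadjusted p under 0.05 (over all genes 7.99%). No gene passed the adjusted threshold there, and with libraries scaled to totals the genes above fell to 636 of all, against 1384 with TMM. Of 75 mitochondrial ribosomal proteins 11 were lower in A1, 17 in A2 and 7 in A3, to be read against the same shares over all genes. Hemoglobin and red cell genes had a median of -2.22, 2.09 and 0.67 in the 3 A1 pairs, so the pairs went opposite ways.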
